A study of Rattus norvegicus with 45 samples.

Results

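The comparison described here is that of rats given H3.3Q5A and rats given empty vector in the ventral tegmental area (VTA) after saline self-administration (SA), with 7 rats in each group, out of 45 RNA-seq libraries in all. Of 32883 Ensembl genes in the deposited table, the 20284 that lay above its lowest value in at least 7 of these 14 rats were tested. All were wild-type male Sprague-Dawley rats of 250-275 g, which self-administered saline for 10 d, received the virus into VTA on day 11, and were taken after 30 d of abstinence. The H3.3Q5A vector expresses the histone variant H3.3 with alanine in place of glutamine at position 5, and the empty vector carries the GFP tag that both vectors share. H3.3 WT rats (n = 7) after saline, and empty and H3.3Q5A rats (n = 8 each) after heroin SA, are used beside them. A further saline library was left out, since its labels name both H3.3Q5A and H3.3 WT. Tissue was a 2 mm punch guided by GFP fluorescence, so that infected and uninfected neurons and glia entered each library together, and the sources used here do not name the promoter that drives the vector. The paper calls the virus AAV2, while the series text calls it lentiviral.

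H3.3 is the replacement variant of histone H3, which is laid down throughout the cell cycle and gathers in the chromatin of non-dividing cells such as neurons. The enzyme transglutaminase 2 (Tgm2) can attach dopamine to the glutamine at position 5, next to the lysine that carries the H3K4me3 mark of active promoters, and alanine at that position cannot take the group. The VTA holds the dopamine neurons that project to the striatum and cortex, along with GABA and glutamate neurons and myelinating glia. The saline comparison sets the mutant vector against a vector without H3.3, in animals that never took heroin. In it, the Q5A change and the added H3.3 cannot be told apart.

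Empty-vector libraries held 29726998 to 59608712 reads on genes (median 55197003), and H3.3Q5A libraries held 27281902 to 68069513 (median 34513499). The difference of mean log2 reads was -0.27 (exact permutation test, two-sided, p = 0.258), and that of the number of genes above the lowest value was -489 (20627 ± 559 vs. 20138 ± 477, SD, n = 7 each, exact permutation p = 0.108). The first principal component of the 14 rats took 35.4% of the variance. Empty rat 18 lay at 16.3 on this component, among the H3.3Q5A rats, whereas the other 6 empty rats lay from -28.3 to -3.93. H3.3Q5A rats 31 and 33 lay at -2.79 and -0.38, and the other 5 lay from 12.95 to 30.89, with rat 28 the highest.

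In all, 1215 genes (5.99% of those tested) were differentially expressed (DEx, adjusted p under 0.05 and log2 fold change beyond 0.2 in limma), of which 779 (3.84%) were higher and 436 (2.15%) lower in H3.3Q5A. The median log2 fold change was 0.37 among higher genes (quartiles 0.28 and 0.49) and -0.29 among lower genes (quartiles -0.37 and -0.24), while the median over all tested genes was -0.01. Thus most DEx genes moved by less than 1 on the log2 scale. Genes with a mean level at or above the median of the tested genes were called more often (8.99%) than those below it (2.99%). In 200 of the DEx genes (16.5%) no H3.3Q5A rat overlapped any empty rat, against 280 (1.38%) of all genes tested. When each rat's values were centred on their median, 1238 genes were called and 78.9% of them were higher, compared with 64.1% in the values as deposited.

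The number of DEx genes depended on single rats. It was 227 without empty rat 22, 366 without empty rat 15, 709 without empty rat 42, 225 without H3.3Q5A rat 28 and 519 without H3.3Q5A rat 32. Conversely, it was 2326 without empty rat 18. Leaving out any of the other 8 rats gave 844 to 1347. Without empty rats 18 and 22 together it was 1344, a choice made after the data were examined.

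**Figure D1:**
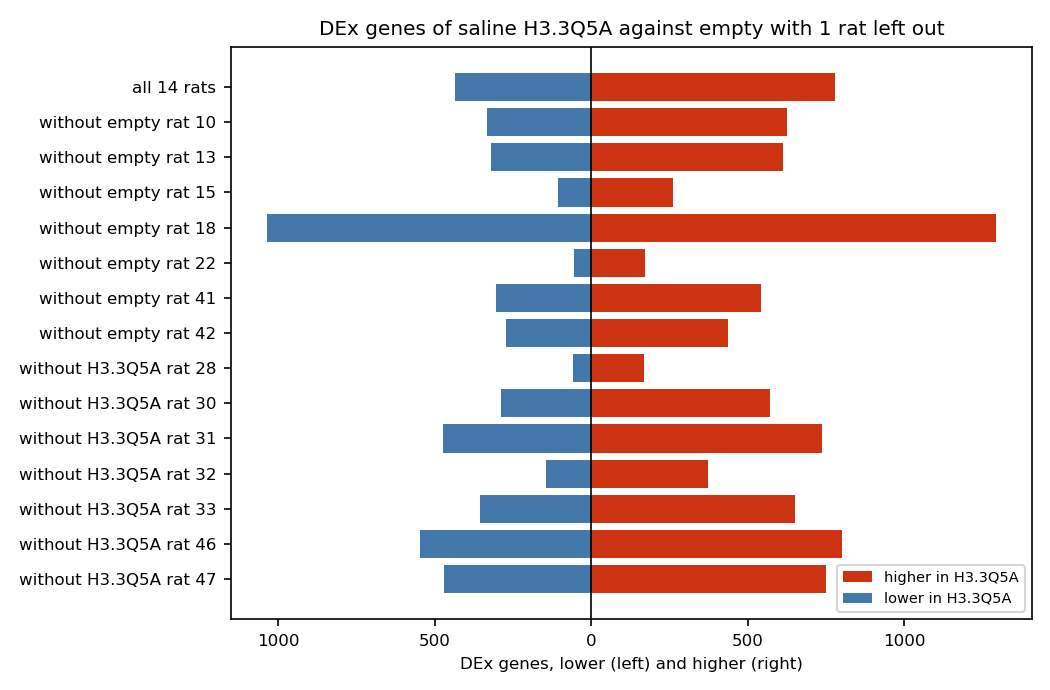
Number of DEx genes of saline H3.3Q5A vs. saline empty with all 14 rats and with each rat left out; bars to the right count genes higher and bars to the left genes lower in H3.3Q5A. The longest bars belong to the fit without empty rat 18 (2326 genes) and the shortest to those without H3.3Q5A rat 28 (225) and empty rat 22 (227).

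Gene names were known for 1997 of the tested genes, from the readable rows of a supplementary table of the study that is ranked by H3.3 WT vs. empty in saline rats. That ranking used the same empty rats, and 21.8% of the named genes were DEx (15.3% higher, 6.56% lower) compared with 4.26% of the unnamed ones. Counts over named genes below are therefore descriptions of those genes and not of whole pathways.

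Among named genes, the lowest p was that of Icmt, the methyltransferase that caps prenylated proteins such as Ras (ENSRNOG00000010953, rn6 chr5:169475269-169482030). It ranged from 10.28 to 10.39 (median 10.31) in empty rats and from 10.46 to 10.69 (median 10.61) in H3.3Q5A rats on the deposited log2-like scale. Every H3.3Q5A rat lay above every empty rat, with a log2 fold change of 0.26 (SE 0.05, adjusted p = 0.0114). Phospho1, a phosphatase of phosphocholine and phosphoethanolamine, ranged from 8.75 to 9.66 (median 9.22) in empty and from 9.79 to 10.41 (median 10.02) in H3.3Q5A rats, again without overlap (log2 fold change 0.83, SE 0.15, adjusted p = 0.0114). Nacc2, a BTB-domain transcriptional repressor, rose by 0.62 from a median of 12.51 to 13.14, and the recycling endosome adaptor Rab11fip5 by 0.41 from 12.26 to 12.61, both without overlap. Pnkd, named for a paroxysmal dyskinesia, rose by 0.52, and Ncdn, a neuronal protein of dendrites, by 0.37. Sema7a, a membrane-anchored semaphorin, rose by 0.92 and the ER protein Sdf2l1 by 0.45, with 6 of 7 H3.3Q5A rats above all empty rats for each. All of these genes remained DEx with any of the 14 rats left out.

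Syt2 had the largest log2 fold change among the named genes that were higher and at or above the median level. Syt2, the calcium sensor of fast synchronous release, ranged from 10.92 to 12.47 (median 11.51) in empty rats and from 12.45 to 13.20 (median 12.71) in H3.3Q5A rats. Its log2 fold change was 1.36 (SE 0.30, adjusted p = 0.0116). The ranges touched only because of empty rat 18, at 12.47, since the other empty rats reached 11.60 at most. Cplx1, which clamps and triggers SNARE complexes, ranged from 13.52 to 14.95 (median 13.75) in empty and from 14.59 to 15.41 (median 14.95) in H3.3Q5A rats (log2 fold change 0.99, SE 0.24, adjusted p = 0.0167). Here too the highest empty value was that of rat 18. Cabp7, a calcium-binding protein of the calmodulin family, rose by 1.07 (SE 0.22) without overlap. Atp2b2, a calcium pump of the neuronal plasma membrane, ranged from 13.91 to 14.47 (median 14.03) in empty and from 14.54 to 14.77 (median 14.69) in H3.3Q5A rats (log2 fold change 0.58, SE 0.11). The pacemaker channel Hcn2 rose by 0.69. Pcp4l1, a small calmodulin-binding protein, rose by 0.78 and Dnm1, the dynamin of vesicle endocytosis, by 0.25.

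Of 26 synaptic vesicle genes listed, 5 were named and 3 were higher (Syt2, Cplx1 and Dnm1), where 15.3% of all named genes were. Syn1, which tethers vesicles, was not called (0.26, adjusted p = 0.0678), and the remaining named gene of the list had a negative value that was not called. Of 28 genes of action potentials, 4 were named and 3 were higher, Atp2b2 and Hcn2 among them, while Scn3a, a sodium channel prominent in immature neurons, was at -0.32 (adjusted p = 0.0534). Scn9a, the channel Nav1.7, fell by 0.78 on the log2 scale (SE 0.25, adjusted p = 0.0487). This call was lost in 11 of the 14 fits that left out 1 rat. Dnm1 was lost in 9 and Hcn2 in 2 of these fits, whereas Syt2, Cplx1, Cabp7, Atp2b2 and Pcp4l1 were called in all of them. Of 14 genes of glutamate neurons 3 were named and none was called, and no gene of the GABA, opioid or serotonin and acetylcholine lists was named. Of 26 dopamine genes only Adcy5 was named (0.05, adjusted p = 0.64), so that the dopamine content of the punches could not be compared.

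**Figure D2:**
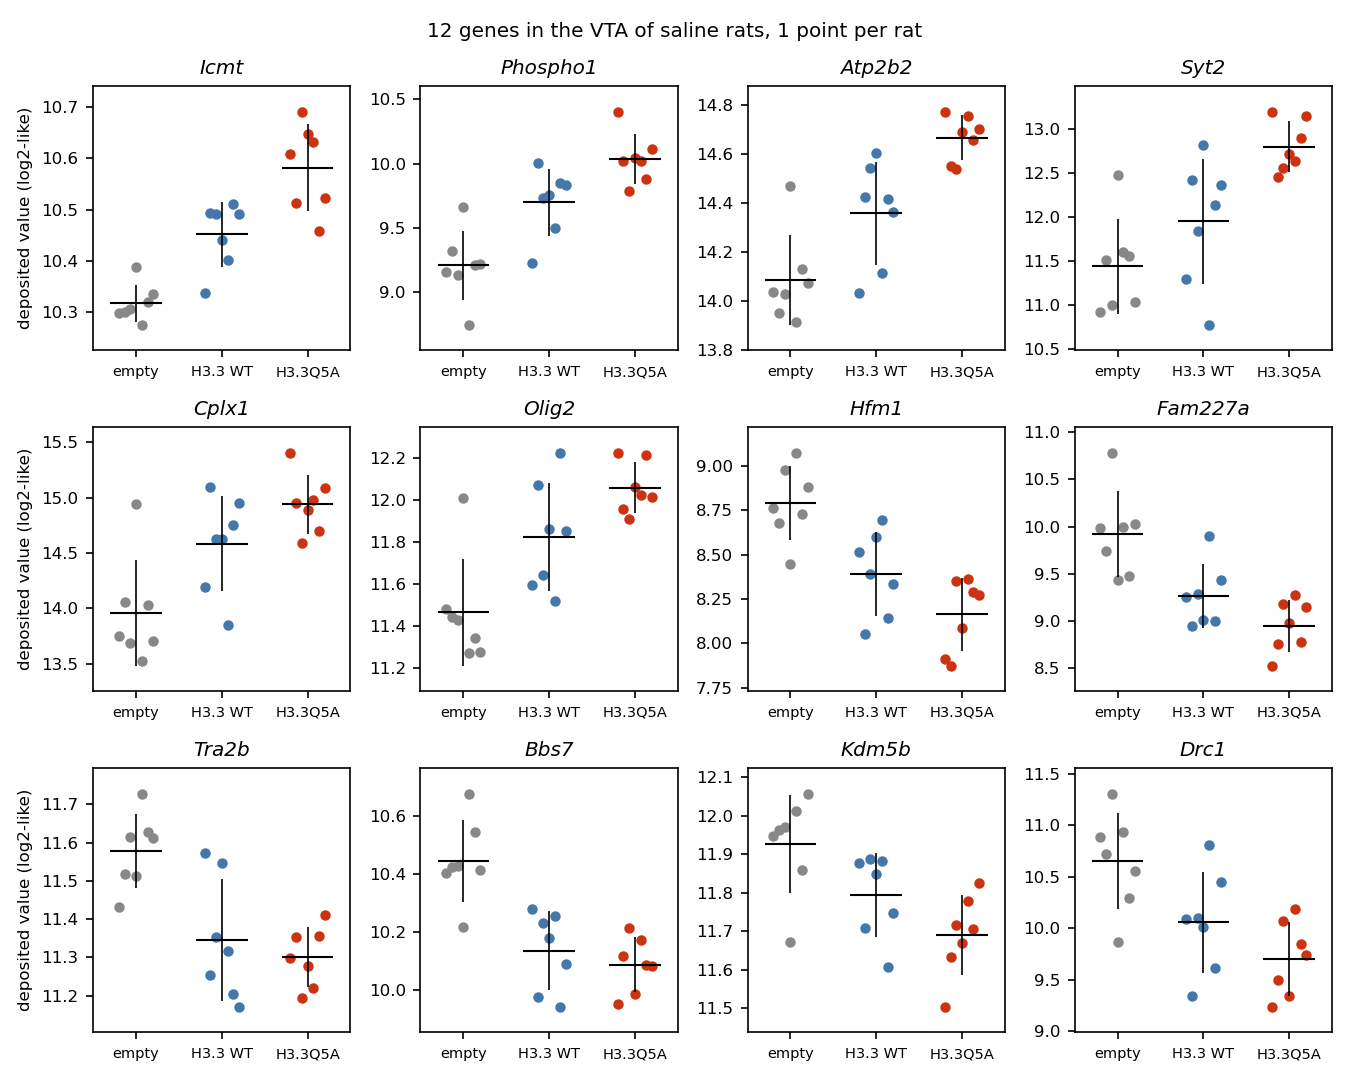
Deposited values (log2-like scale, separate y axis per gene) of 12 genes in saline rats with the empty vector, the H3.3 WT vector or the H3.3Q5A vector; each point is 1 rat (n = 7 per group), horizontal lines are means and vertical lines 1 SD. Icmt, Phospho1 and Atp2b2 do not overlap between empty and H3.3Q5A rats, and the single high empty rat in Syt2, Cplx1 and Olig2 is rat 18.

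Promoters are shown for 3 genes that mark the directions described here, the first-ranked Icmt, the oligodendrocyte factor Olig2, which rose with the myelin genes, and the splicing factor Tra2b, which fell with other splicing factors. Each is 300 bases from RefSeq on GRCr8, from 250 before to 50 after the annotated start, printed from 5′ to 3′ on the plus strand with CG dinucleotides in capitals; Icmt is at chr5:168086841-168087140, Olig2 at chr11:43961335-43961634 and Tra2b at chr11:92293192-92293491.
Icmt: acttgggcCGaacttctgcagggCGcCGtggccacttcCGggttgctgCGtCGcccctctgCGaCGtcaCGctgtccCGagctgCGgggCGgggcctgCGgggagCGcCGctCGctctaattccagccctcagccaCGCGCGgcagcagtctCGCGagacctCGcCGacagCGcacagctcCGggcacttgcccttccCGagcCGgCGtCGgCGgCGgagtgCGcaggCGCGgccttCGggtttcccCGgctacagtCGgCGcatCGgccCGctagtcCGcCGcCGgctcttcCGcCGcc
Olig2: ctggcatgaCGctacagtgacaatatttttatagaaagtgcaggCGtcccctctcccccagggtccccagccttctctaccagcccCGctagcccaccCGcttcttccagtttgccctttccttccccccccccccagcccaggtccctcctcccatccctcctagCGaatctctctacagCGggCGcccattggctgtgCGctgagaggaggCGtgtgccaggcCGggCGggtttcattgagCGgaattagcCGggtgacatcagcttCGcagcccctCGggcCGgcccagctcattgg
Tra2b: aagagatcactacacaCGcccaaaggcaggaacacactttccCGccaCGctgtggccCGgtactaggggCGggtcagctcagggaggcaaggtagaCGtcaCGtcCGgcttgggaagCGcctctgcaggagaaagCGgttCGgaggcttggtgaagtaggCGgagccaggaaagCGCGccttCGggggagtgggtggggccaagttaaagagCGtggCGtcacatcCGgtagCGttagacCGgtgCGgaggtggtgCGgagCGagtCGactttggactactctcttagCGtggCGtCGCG
The Icmt window holds 45 CG dinucleotides at a GC content of 74.0%, Olig2 16 at 63.3% and Tra2b 28 at 62.7%, while the median over all 33465 promoters of the reference is 7 at 51.7%. For the matched promoters of named genes that were not called, these medians are 22 and 62%. The GC-box core GGGCGG was found on either strand of all 3 windows, in 33.1% of all promoters and in 64.2% of those of named genes not called. TGACG, the core of the CRE motif, was found in all 3, in 21.2% of all promoters and in 30.6% of those of named genes not called. CCAAT was found in the Olig2 window only and in 37.5% of all promoters, and TATAAA in the Olig2 window only and in 14.2%. Promoters were matched for 79.8% of the named protein-coding genes that rose, 85.16% of those that fell and 77.85% of those not called. Since each set has unmatched genes, no comparison of base composition between DEx sets is drawn. Gene span on rn6 was known for all named protein-coding genes. Its median was 20.1 kb for the 297 higher genes (quartiles 7.83 and 53.2) and 32.5 kb for the 128 lower genes (quartiles 12.7 and 55.4). For the 1526 named genes that were not called it was 21.02 kb. These spans overlapped widely.

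Most named myelin genes were higher in H3.3Q5A, where 15.3% of all named genes were. Of 26 genes of oligodendrocytes and myelin listed, 21 were named, 19 of these were higher and none was lower, with a median log2 fold change of 0.66 (0.28 to 0.73). Olig2, the lineage transcription factor, ranged from 11.27 to 12.01 (median 11.43) in empty and from 11.91 to 12.22 (median 12.02) in H3.3Q5A rats, a log2 fold change of 0.59 (SE 0.14, adjusted p = 0.0141). Again only rat 18 of the empty group reached the H3.3Q5A range. Its partner Olig1 rose by 0.61 (SE 0.14) from a median of 13.14 to 13.79. Gal3st1, which makes the myelin lipid sulfatide, rose by 0.70 from 9.07 to 9.93 without overlap, and Mobp, a structural protein of compact myelin, by 0.70 from 15.17 to 15.91. Aspa, the enzyme that splits N-acetylaspartate, named after its value was seen, was not called (0.28, adjusted p = 0.13). Averaged over the 21 genes, the level was 12.83 to 13.84 (median 13.11) in empty rats and 13.55 to 14.03 (median 13.78) in H3.3Q5A rats, and the highest empty rat was rat 18. The median of the list stayed between 0.60 and 0.78 with each rat left out. The count of called genes was 20 without empty rat 18, but 2 without empty rat 22, 3 without empty rat 15 or H3.3Q5A rat 28, 6 without empty rat 42 and 9 without H3.3Q5A rat 32. In bulk tissue, more oligodendrocytes in the punch and more RNA per oligodendrocyte cannot be told apart.

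Among 12 genes of oligodendrocyte precursors and newly formed cells 4 were named. Nkx2-2, a factor of the lineage, rose by 0.53 without overlap of the groups, a call that was lost in 6 of the 14 fits with 1 rat left out, and the others had positive values that were not called.

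Named splicing factors were often lower, where 6.56% of all named genes were. Of 30 genes listed 23 were named, 11 of these were lower and none was higher, with a median log2 fold change of -0.25 (-0.40 to 0.02). Tra2b, an SR-like activator of exon inclusion, ranged from 11.43 to 11.73 (median 11.61) in empty and from 11.19 to 11.41 (median 11.30) in H3.3Q5A rats, with a log2 fold change of -0.28 (SE 0.06, adjusted p = 0.0116). No H3.3Q5A rat reached the empty range. Rbm5, an RNA-binding regulator of exon choice, was at -0.27 and Srrm1, a coactivator with serine and arginine repeats, at -0.28 (adjusted p = 0.0181 and 0.0216). Bcas2, a subunit of the PRP19 spliceosome complex outside that list, fell by 0.28 on the log2 scale without overlap. The count of 11 became 15 without empty rat 18, 2 without empty rat 22 or H3.3Q5A rat 28, 5 without H3.3Q5A rat 32, 6 without empty rat 15 and 7 without H3.3Q5A rat 30. The median lay between -0.28 and -0.20 in every such fit.

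The rule for named genes also gave lower genes outside these lists. Hfm1, a DNA helicase known from meiosis, ranged from 8.45 to 9.07 (median 8.76) in empty and from 7.87 to 8.36 (median 8.27) in H3.3Q5A rats, the lowest p among named lower genes (log2 fold change -0.63, SE 0.12, adjusted p = 0.0114). Xpc, which recognises damaged DNA, was at -0.23, the antiproliferative factor Btg1 at -0.40, and Ftsj3, a methyltransferase of ribosome maturation, at -0.26. Ccdc73 was at -0.36 and the zinc finger gene Zfp667 at -0.60. Zfp667 was called in 6 of the 14 fits with 1 rat left out, and the others in all 14.

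The histone genes that the vectors mimic were not among the named genes. Of 14 genes for H3.3 and its chaperones, 3 were named. Nasp, a chaperone of H3 and H4, ranged from 9.91 to 10.44 (median 10.02) in empty and from 9.59 to 10.06 (median 9.70) in H3.3Q5A rats, a log2 fold change of -0.28 (adjusted p = 0.0238). Dek was at -0.13 (adjusted p = 0.14) and Cabin1, of the HIRA complex, at 0.08 (adjusted p = 0.52). Of 17 genes of monoaminylation and H3K4 methylation, 4 were named, and Kdm5b, a demethylase of H3K4me3, was lower in H3.3Q5A. It ranged from 11.67 to 12.06 (median 11.96) in empty and from 11.50 to 11.82 (median 11.70) in H3.3Q5A rats, with a log2 fold change of -0.24 (SE 0.05, adjusted p = 0.0148), and the groups overlapped. Tgm2, the enzyme that dopaminylates H3, ranged from 9.18 to 10.11 (median 9.80) in empty and from 9.51 to 10.50 (median 10.12) in H3.3Q5A rats and was not called (0.33, SE 0.21, adjusted p = 0.32). Kdm5a (-0.01) and Rbbp5 (-0.09) were not called either. Kdm5b was called in all 14 fits with 1 rat left out and Nasp in 10 of them.

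Of 40 chromatin remodellers and cohesin genes, 19 were named, with a median of -0.11. Among these, 2 were lower and 1 was higher, where 6.56% of all named genes were lower and 15.3% higher. In both directions together, the list was called no more often than named genes at large (21.8%). Smc3, a core subunit of cohesin, was lower at -0.26 (adjusted p = 0.0192) and the ISWI ATPase Smarca1 at -0.46 (adjusted p = 0.0195). Chd7, named after its value was seen, was the single higher member at 0.34 (adjusted p = 0.0444). It encodes a remodeller that oligodendrocytes also use.

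Named genes of the primary cilium, the single sensory cilium that neurons and glia carry, were often lower, where 6.56% of all named genes were. Of 18 listed 15 were named, 6 were lower and none was higher, with a median of -0.21 (-0.36 to -0.04). Bbs7, a subunit of the BBSome that moves receptors in cilia, ranged from 10.22 to 10.68 (median 10.43) in empty and from 9.95 to 10.21 (median 10.09) in H3.3Q5A rats, without overlap (log2 fold change -0.36, SE 0.08, adjusted p = 0.0141). The ciliary GTPase Arl13b was at -0.22, the transport protein Ift81 at -0.32 and the basal body protein Ofd1 at -0.25. The count was 8 without empty rat 18, 1 without empty rat 22, 2 without H3.3Q5A rat 28 and 4 to 7 with any other rat left out. Genes of motile cilia were also among the lower genes. Drc1, a regulator of ciliary dynein, ranged from 9.87 to 11.31 (median 10.72) in empty and from 9.24 to 10.18 (median 9.74) in H3.3Q5A rats (log2 fold change -0.95, SE 0.26, adjusted p = 0.0248). Ccdc39, an assembly factor of the axoneme, was at -0.40 and Cfap74 at -0.56. With 1 rat left out, the call of Cfap74 was lost in 10 of 14 fits, that of Drc1 in 4 and that of Ccdc39 in 1. Fam227a, at -0.97 (SE 0.21), was lower without overlap, and Iqub was at -0.64. Drc1, Ccdc39 and Cfap74 belong to a list of 14 ependyma and choroid plexus genes, of which 5 were named, 3 were lower and none was higher. The mean of these 5 was 8.92 to 9.81 (median 9.41) in empty and 8.49 to 9.25 (median 8.78) in H3.3Q5A rats. How much of the ciliary difference came with the ependyma of the punch was not tested.

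Named genes of oxidative phosphorylation had slightly positive values. Of all named genes 15.3% were higher. From a list of 27 genes, 14 Ensembl genes were named, 6 of these were higher and none was lower, with a median of 0.19 (0.07 to 0.45). Ndufv1, a core subunit of complex I, ranged from 12.56 to 12.97 (median 12.75) in empty and from 12.94 to 13.06 (median 12.99) in H3.3Q5A rats (log2 fold change 0.24, SE 0.05, adjusted p = 0.0116). Cox5a and Cox6a1, subunits of complex IV, rose by 0.23 and 0.28. The count was 8 without empty rat 18, 1 without empty rats 15, 22 or 42 or H3.3Q5A rat 28, 2 without H3.3Q5A rat 32 and 3 without H3.3Q5A rat 33. Mvk, mevalonate kinase of cholesterol synthesis, rose by 0.25, and the other 3 named genes of its list of 17 were positive but not called. The heat shock list had 10 of 22 genes named and the ribosomal protein list 3 of 26, with no gene called in either.

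Markers of other cell types had medians from -1.07 (pituitary) to 0.41 (microglia). Of 16 endothelial genes 10 were named, all had positive values (median 0.28) and 3 were called, where 15.3% of all named genes were higher. The 3 were Emcn (0.32), Eng (0.46) and Esam (0.31), all membrane proteins of vessels. None was called without empty rat 22 or without H3.3Q5A rat 28, and 1 without empty rat 15, empty rat 41 or H3.3Q5A rat 32. Of 9 named mural genes Foxs1, a factor of pericytes, was higher (0.43) and the list median was -0.28. Aldoc of astrocytes (0.28), Cx3cr1 of microglia (0.49) and the chemokine Cxcl12 (0.48) were each the single called member of lists with 3, 3 and 8 genes named. Single calls in lists this short cannot be set apart from the 15.3% of all named genes that were higher. No gene was called among 14 meningeal or 6 red blood cell genes, with medians of -0.11 and -5.2e-04. Pituitary hormone genes, foreign to the VTA, varied between rats. Cga ranged from 5.73, the lowest value of the table, to 12.59 (median 8.62) in empty and from 5.95 to 9.24 (median 6.81) in H3.3Q5A rats, and Tshb from 6.55 to 11.65 (median 7.08) and from 6.48 to 8.41 (median 6.68). The median of the 3 named pituitary genes was -1.07. Neither Cga nor Tshb was called (adjusted p = 0.14 and 0.16), and their part in the comparison was not tested.

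**Figure D3:**
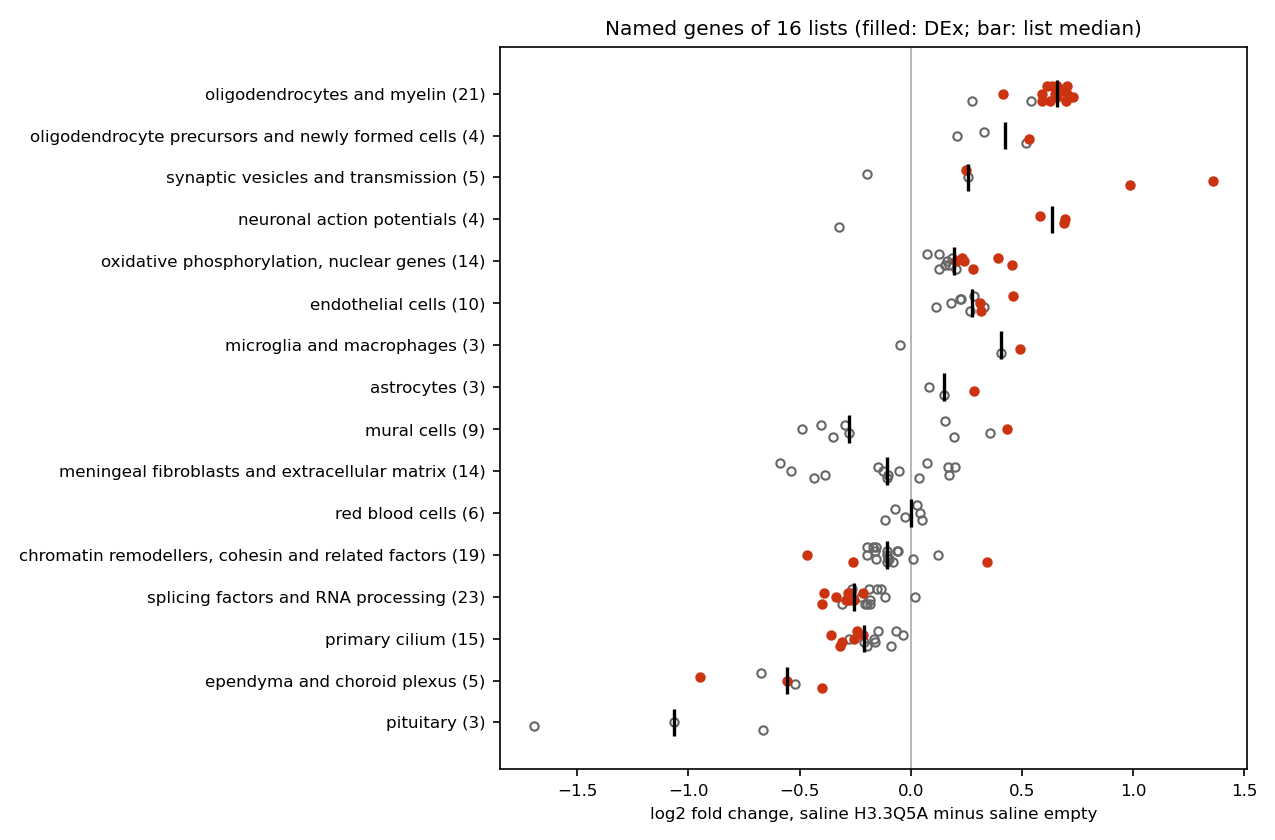
Log2 fold change of saline H3.3Q5A minus saline empty for the named genes of 16 lists, with the number of genes in parentheses; filled points are DEx, open points are not, and black bars are list medians. Myelin genes cluster near 0.66, splicing and ciliary genes lie mostly left of 0, and mural, meningeal and red blood cell genes lie on both sides of 0.

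H3.3 WT rats were compared with both groups. Against H3.3 WT, 2 genes were DEx in H3.3Q5A (0.00986% of those tested, with 0.00493% in each direction), while 2502 had an unadjusted p under 0.05 (12.3%). They have no name here. ENSRNOG00000009577 was higher, at 9.01 to 9.33 (median 9.28) vs. 8.01 to 9.05 (median 8.55) in H3.3 WT rats, a log2 fold change of 0.69 (SE 0.12, adjusted p = 0.04). ENSRNOG00000010402 was lower, at 6.33 to 6.72 (median 6.51) vs. 6.57 to 7.17 (median 7.06), a log2 fold change of -0.47 (SE 0.09, adjusted p = 0.04). With any 1 H3.3Q5A rat left out, 0 or 1 genes were called. For H3.3 WT vs. empty, limma called 0 genes, with 3666 (18.1%) at an unadjusted p under 0.05 and a lowest adjusted p of 0.176. Of 58 DEx genes named by the rule, 53 had an H3.3 WT median between the empty and H3.3Q5A medians, as had 89.8% of all DEx genes and 42.8% of all tested genes. DEx genes were chosen for a distance between those medians, which widens the interval. List medians did not all follow this order. Relative to empty, the endothelial median was 0.36 in H3.3 WT and 0.28 in H3.3Q5A rats, that of chromatin remodellers -0.17 and -0.11, and that of mural genes 0.62 and -0.28. Only named genes enter these medians, and their names came from a ranking by H3.3 WT vs. empty in saline rats. That choice favours large H3.3 WT values, so the order of the vectors over whole lists cannot be read from them. For Syt2 the H3.3 WT rats were 0.51 above empty and 0.85 below H3.3Q5A, for Icmt 0.13 above and 0.13 below, and for Olig2 0.36 above and 0.23 below. For Tra2b they were at -0.23 from empty, with H3.3Q5A at -0.04 from H3.3 WT. For Nfic, a nuclear factor I gene that rose by 0.89 (a call lost in 8 of the 14 fits with 1 rat left out), H3.3 WT was 0.86 above empty and H3.3Q5A was 0.03 above H3.3 WT. These comparisons share rats, and whether the effects of both vectors differ for a gene is given only by the test of H3.3Q5A against H3.3 WT, which none of these 5 genes passed (adjusted p = 0.18, 0.21, 0.51, 0.82 and 0.98).

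The same vectors in heroin rats, none of them shared with the saline comparison, gave 809 DEx genes (3.99%), 601 higher (2.96%) and 208 lower (1.03%) in H3.3Q5A. When centred on the median of each rat these became 492 higher and 894 lower. Of the 1215 saline DEx genes, 1042 (85.8%) had a heroin log2 fold change of opposite sign, against 60.6% of all tested genes. The heroin median was -0.16 for the 779 genes higher after saline and 0.08 for the 436 lower ones. In 82 saline DEx genes the heroin difference was itself DEx in the opposite direction, and in 1 in the same direction. The difference between drug groups was tested for each gene with the interaction contrast, which called 3246 genes (16%), 1607 with a positive (7.92%) and 1639 with a negative difference (8.08%), and 965 of the saline DEx genes were among them. The saline values enter that contrast too, so that genes chosen for a large saline difference are favoured.

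Among neuronal genes, Syt2 was at 1.36 after saline and -0.85 after heroin, a difference of -2.21 (adjusted p = 0.0011). Cplx1 was at 0.99 and -0.52 and Cabp7 at 1.07 and -0.51, with differences of -1.51 and -1.57. Atp2b2 was at 0.58 and -0.36 and was DEx in both drug groups, with opposite direction (heroin adjusted p = 0.0383). Among myelin genes, all 21 were below 0 in heroin rats, with a median of -0.36, but none was called there, and for Mobp the difference was -1.19 (adjusted p = 0.00202). Btg1 (-0.40 and 0.31), Mvk (0.25 and -0.26) and Cox5a (0.23 and -0.22) were also DEx in both with opposite direction. Markers of other cell types moved in the same heroin comparison. Of 14 meningeal and extracellular matrix genes 13 were called higher (median 0.77), while mural and red blood cell genes had medians of 0.46 and 0.48 with none called. Their part in the heroin values was not tested. For the splicing and primary cilium lists the heroin medians were 0.03 and 0.02, and Tra2b (0.01), Bbs7 (0.01), Hfm1 (0.01) and Icmt (-3.36e-03) lay close to 0 after heroin. The motile cilium genes Drc1 (0.59) and Fam227a (0.52) had positive heroin values, and the median of the ependyma and choroid plexus list was 0.32.

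**Figure D4:**
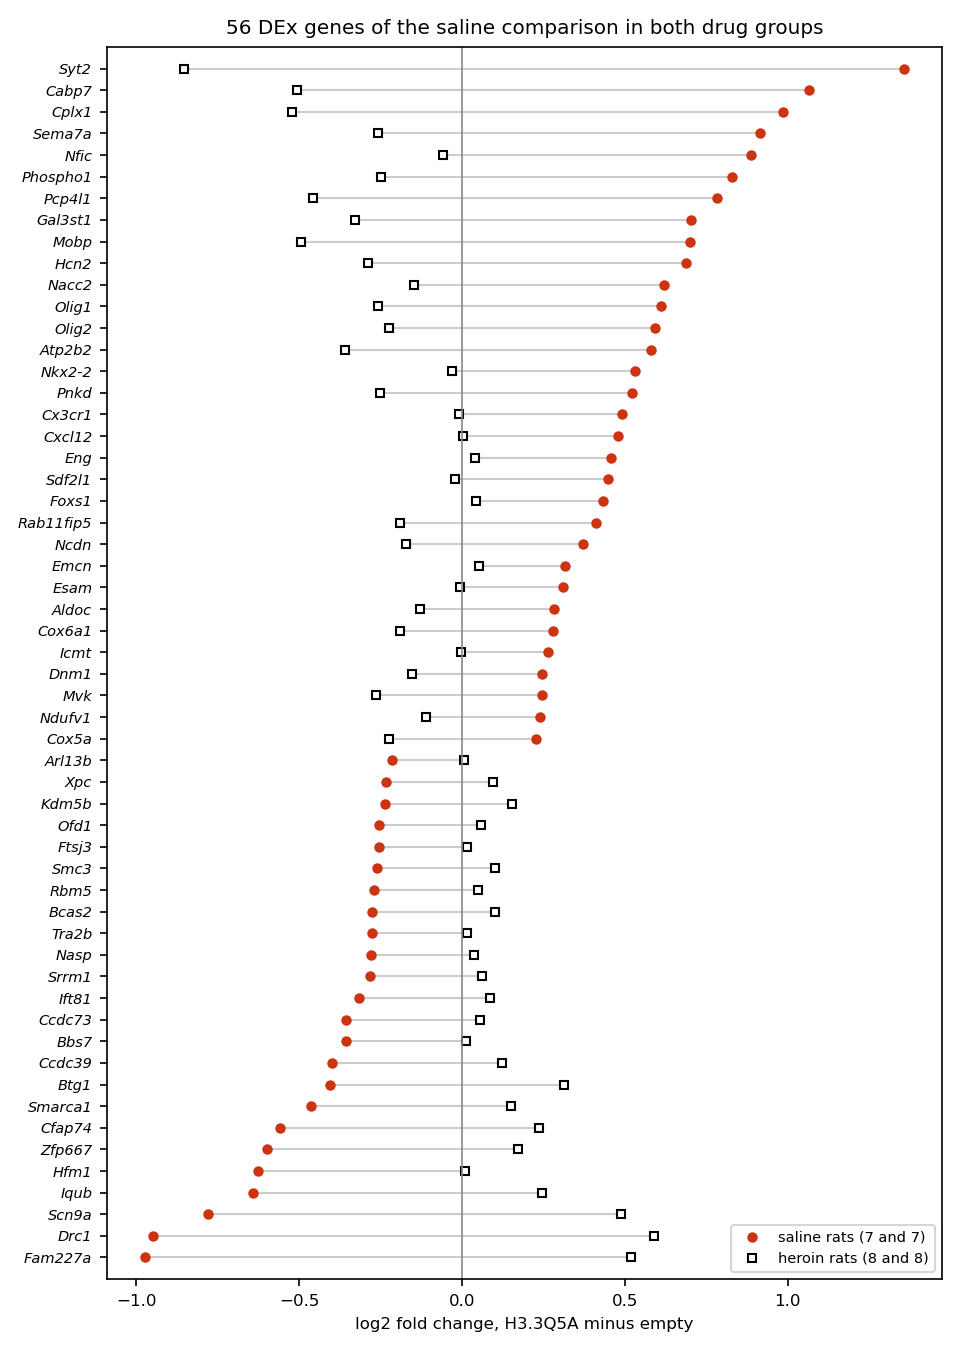
Log2 fold change of H3.3Q5A minus empty in saline rats (filled circles, 7 and 7 rats) and heroin rats (open squares, 8 and 8 rats) for 56 of the 58 DEx genes named by the rule, sorted by the saline value. Most squares lie across 0 from their circle or close to 0, and Syt2 spans the widest interval, from 1.36 to -0.85.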

How the data were processed

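One library per rat was made from polyA RNA of GFP-guided VTA punches with a TruSeq kit that does not mark strand, so that overlapping genes on opposite strands cannot be told apart. Per the paper and the submitters' notes, the authors used HISAT2 (version 2.1.0) on rn6, dropped reads with several alignments, counted reads on Ensembl genes with featureCounts (version 2.0.1), named RUVr for technical variation, and normalized with DESeq2 (version 2.11.40.6). What the authors deposited is DESeq2's variance-stabilized form of the counts, close to log2 units, with 5.73 standing for 0 reads. Inverting it gave whole reads for 100% of values (tolerance 0.05).

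All 44 assigned rats in 6 groups were fitted together in R 4.3.3 with limma 3.58.1 (intensity trend, two-sided, Benjamini-Hochberg over 20284 genes). Errors are SE of the fit, and fold changes understate those of genes with few reads. The text names the 10 genes of lowest p and the 5 largest changes at or above the median level in each direction, up to 4 genes of lowest p in each of 31 lists, and all named genes of the H3.3 and monoaminylation lists. Members and lists were chosen with earlier results of these data known. Names and rn6 positions came from 1998 readable rows of a supplementary table, and promoters from RefSeq (GRCr8), with older symbols matched through synonyms. Alternatives were other gene filters, median centring, quantile normalization, fits of the 14 or 21 saline rats, array weights, 1 or 3 residual factors, log2 reads as covariate, voom on recovered reads, other thresholds, the conflicting library counted by its title, and each rat left out. Fits with 2 factors, with 14 rats and 1 factor, and without empty rats 18 and 22 were added after seeing the data. No 2 libraries of a group looked like duplicates (lowest chi-square per gene 11.7 over 42 pairs). Scripts were tested on simulated data. Some genes of the rule and lists enter the counts but are not reported here by name.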

Additional observations from a re-analysis of the deposited data

Results flagged for a closer look

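Among 150 sets of 7 values examined, 14 had a rat far from the other 6 by Dixon's criterion, where chance gives about 7.5. The sets share the same rats, and the myelin mean includes Mobp and Olig2. An excess over 7.5 is therefore not a count of separate odd values. Empty rat 18 accounted for 10 of them. It was the highest of the empty rats, at 14.47 for Atp2b2 (others 13.91 to 14.13), 11.23 for Chd7 (others 10.66 to 10.84), 16.08 for Mobp (others 14.87 to 15.39), 14.95 for Cplx1 (others 13.52 to 14.06), 11.29 for Pcp4l1 (others 10.62 to 10.84), 12.01 for Olig2 (others 11.27 to 11.48) and 13.84 for the mean over the 21 myelin genes (others 12.83 to 13.18). It was the lowest, at 9.78 for Zfp667 (others 10.53 to 10.93), 11.51 for Scn3a (others 11.89 to 12.12) and 10.19 for Btg1 (others 10.64 to 10.91). All these values lay on the side of the H3.3Q5A rats. Of the other rats, H3.3Q5A rat 31 was at 8.41 for Tshb (others 6.48 to 6.90), H3.3Q5A rat 31 was at 9.24 for Cga (others 5.95 to 7.13), H3.3Q5A rat 28 was at 13.13 for Sema7a (others 12.39 to 12.71) and empty rat 22 was at 11.66 for Rbbp5 (others 11.44 to 11.49). Without empty rat 18, 2326 genes were DEx in place of 1215, and 1207 of the 1215 were among them.

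For 52 of the 68 genes named in the text, the effect of H3.3Q5A against empty differed between drug groups in the interaction contrast of limma (adjusted p from 0.000746 to 0.0337). Of all tested genes, 3246 (16%) were called in this contrast. Values are the heroin effect minus the saline effect on the log2 scale. The difference was -2.21 for Syt2, -1.57 for Cabp7, -1.51 for Cplx1, -1.24 for Pcp4l1, -1.19 for Mobp, -1.17 for Sema7a, -1.08 for Phospho1 and -1.03 for Gal3st1. Next it was -0.98 for Hcn2, -0.94 for Atp2b2, -0.87 for Olig1, -0.81 for Olig2, -0.78 for Pnkd, -0.77 for Nacc2, -0.62 for Chd7 and -0.60 for Rab11fip5. It came to -0.54 for Ncdn, -0.51 for Mvk, -0.50 for Cx3cr1, -0.48 for Cxcl12, -0.47 for Sdf2l1, -0.47 for Cox6a1, -0.45 for Cox5a and -0.41 for Aldoc. Closer to 0 it was -0.40 for Dnm1, -0.39 for Foxs1, -0.35 for Ndufv1 and -0.27 for Icmt. The saline effect of these genes was positive and past the test. Positive differences were 1.54 for Drc1, 1.49 for Fam227a, 1.27 for Scn9a, 0.89 for Iqub, 0.79 for Cfap74, 0.77 for Zfp667, 0.72 for Btg1 and 0.64 for Hfm1. They were 0.62 for Smarca1, 0.52 for Ccdc39, 0.41 for Ccdc73, 0.40 for Ift81, 0.39 for Kdm5b, 0.38 for Bcas2, 0.37 for Bbs7 and 0.36 for Smc3. The smallest were 0.34 for Srrm1, 0.33 for Xpc, 0.32 for Rbm5, 0.32 for Nasp, 0.31 for Ofd1, 0.29 for Tra2b, 0.27 for Ftsj3 and 0.22 for Arl13b. The saline effect of these genes was negative and past the test. Most of the genes were named for their saline values, which are part of the contrast.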

How the results depend on the processing

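The 1215 DEx genes became 2518 with array weights, 2397, 2804 and 3202 with 1, 2 and 3 residual factors, 2581 with the 14 rats and 1 residual factor, and 2157 at an adjusted p under 0.1. With each rat left out they ranged from 225 to 2326, and the cause was not tested. All 1215 were among the calls with 1, 2 or 3 residual factors. These factors were taken from residuals within the groups, so they left every fold change as it was and altered only its error. That the calls were kept there is therefore no separate support. The 902 calls with log2 reads as covariate shared 875 of the 1215. The other alternatives gave 991 to 1519. H3.3Q5A vs. H3.3 WT gave 5 genes with median centring in place of 2, and 0 to 1 with each H3.3Q5A rat left out. In heroin rats 809 became 1386 with median centring. The interaction gave 5344 genes with 3 residual factors in place of 3246, and 3846 with median centring. With median centring 1028 had a positive and 2818 a negative difference, in place of 1607 and 1639. The difference in genes above the lowest value ranged from -634.0 to -390.4 with each rat left out, and was past 0.05 only without H3.3Q5A rat 47 (exact permutation p = 0.0379). Of the 58 DEx genes named by the rule, 29 were called with every single rat left out and 47 under every other alternative that tested them, and none changed direction. Those other alternatives include the residual factors, which leave fold changes as they are, and looser thresholds, which cannot lose a call. Calls lost among the 58 were 28 without empty rat 22, 26 without H3.3Q5A rat 28, 16 without empty rat 15 and 11 without H3.3Q5A rat 32. The medians of the myelin, splicing, cilium, oxidative phosphorylation and endothelial lists kept their sign and moved by less than the spread between rats under every alternative. No paired analysis was possible because the saline empty and H3.3Q5A rats share no number. Depth did not differ detectably between the groups, but fewer reads in most H3.3Q5A rats limit genes of low level.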
